A study of Mus musculus with 24 samples.

Results

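The intestinal epithelial lineage markers are 31 mouse genes, of 36528 gene models counted, that mark the cell types of the gut lining: 7 pan-epithelial genes, 10 enterocyte genes, 2 antimicrobial lectins, 7 goblet cell genes, and 1 gene each for Paneth, stem, M, tuft and enteroendocrine cells. They were chosen by name, and all 31 were matched by gene identifier in the deposited count files. They were followed in RNA from cells that are not epithelial. Flow cytometry had isolated FRCs (fibroblastic reticular cells, which build the scaffold of lymphoid tissue) and HEV cells (the endothelium of high endothelial venules, where lymphocytes leave the blood) from mouse Peyer's patches, the lymphoid organs of the small intestine wall. Per the labels, 1000 cells were sorted per mouse. Of the 24 libraries, 14 were FRC (7 control and 7 PEG) and 10 were HEV (4 control and 6 PEG). PEG mice took polyethylene glycol at 10% (w/v) in drinking water, freely, for 3 days, given to lower fluid flow, and control mice were unperturbed. Strain, genotype, age and sex of the mice, and whether an FRC and a HEV library came from the same mouse, are not given in the sources used here. Libraries are named by group and by the library number in the labels.

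The epithelium of the small intestine is renewed from stem cells at the crypt base. Absorptive enterocytes take up lipids, sugars and peptides, goblet cells secrete mucus, Paneth cells secrete lysozyme and defensins, tuft and enteroendocrine cells are sensory, and M cells pass luminal antigen to the Peyer's patch below. This epithelium lies directly over the tissue from which FRCs and HEV cells were taken.

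Total counts ranged from 12416032 to 21710946 per library, except HEV PEG library 16 with 3115003, and the median was 16136689. As a set, the marker genes of each sorted cell type were higher in its own libraries. The mean log2(CPM + 1) of 8 FRC marker genes (CPM, counts per one-millionth of the library total) lay between 8.29 and 8.95 in the FRC libraries and between 0.51 and 2.55 in the HEV libraries, and that of 8 HEV marker genes lay between 9.71 and 10.1 in the HEV libraries and between 1.74 and 4.72 in the FRC libraries. Ccl19, 1 of the 8 FRC genes, was near absent, with 131 reads over the 24 libraries and at most 1.55 CPM. Smooth muscle genes were at 8.51 to 9.18 in the FRC libraries and 0.17 to 6.18 in the HEV libraries. Leukocyte genes were at 0.35 to 1.98 in the 24 libraries. Because the index pairs repeat after every 8 libraries, 3 pools were inferred, numbered 1 (libraries 1 to 8), 2 (9 to 16) and 3 (17 to 24). The labels do not state them.

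Many enterocyte genes share a regulatory input, the caudal-type homeobox factor CDX2, which sets intestinal identity and binds sites with a TTTAT core. To show what such matches look like in promoters of enterocyte genes, the 150 bases before the start site are printed for 3 genes, picked among the 5 of 10 enterocyte markers that hold a match, from the RefSeq promoter table of GRCm38.p6, 5′ to 3′ on the strand of the gene. Capitals mark matches to TTTATNG on either strand.
Fabp1 promoter, chr6:71199729-71199878, plus strand: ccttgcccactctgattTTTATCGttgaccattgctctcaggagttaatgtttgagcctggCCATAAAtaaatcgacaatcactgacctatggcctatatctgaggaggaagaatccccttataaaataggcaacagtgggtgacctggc
Fabp2 promoter, chr3:122894922-122895071, plus strand: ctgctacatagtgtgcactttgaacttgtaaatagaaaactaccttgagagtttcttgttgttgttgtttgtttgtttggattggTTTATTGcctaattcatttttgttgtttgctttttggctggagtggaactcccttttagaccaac
Sis promoter, chr3:72967864-72968013, minus strand: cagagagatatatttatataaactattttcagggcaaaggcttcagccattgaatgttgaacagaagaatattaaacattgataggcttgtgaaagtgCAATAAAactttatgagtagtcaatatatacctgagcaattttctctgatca
Fabp1 and Fabp2 encode fatty acid-binding proteins, and Sis encodes sucrase-isomaltase, a brush border disaccharidase. In the 250 bases before the start site the motif was found in 8 of the 25 markers with an entry in the table (32.0%), namely Epcam, Krt20, Fabp1, Fabp2, Alpi, Sis, Reg3g and Agr2, and in 3053 of all 27025 genes with an entry (11.3%). The enterocyte markers Vil1, Lgals4, Apoa1, Apoa4 and Phgr1 had no match there. A match is a description of the letters and not evidence of binding. No other test was made of it.

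The amount of epithelial marker RNA differed between libraries far more than between groups. Dclk1, listed as a tuft cell gene, is set apart here because it was abundant in every library. The other 30 markers took between 0.00166% and 1.52% of the reads of a library. By group they took a median of 0.0183% in FRC control, 0.0892% in FRC PEG, 0.0909% in HEV control and 0.270% in HEV PEG. The highest shares were in FRC PEG library 18 at 1.52%, FRC PEG library 19 at 0.767%, HEV PEG library 23 at 0.608% and HEV control library 24 at 0.582%. The lowest shares were in HEV control library 8 at 0.00166% and HEV PEG library 15 at 0.00509%. Every group held libraries with little and libraries with much of this RNA. In RNA from pooled cells, a smaller number of epithelial cells and less epithelial RNA per cell cannot be told apart, and whether whole cells or free RNA carried it was not tested.

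**Figure D1:**
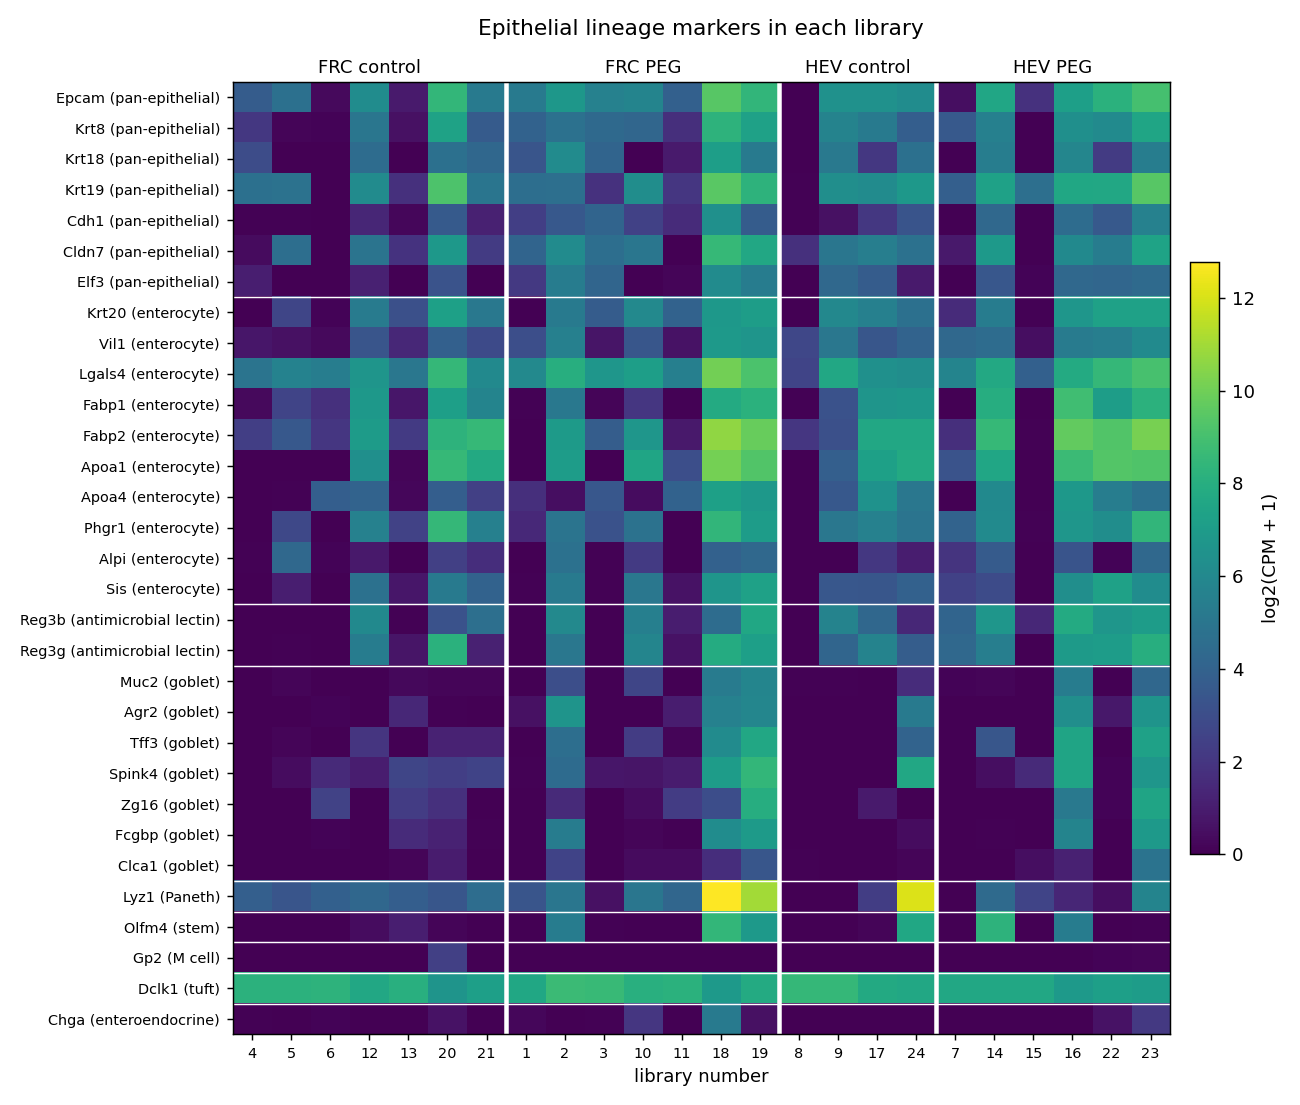
Level of each of the 31 markers, as log2(CPM + 1), in each of the 24 libraries, with libraries in columns by group and genes in rows by lineage. FRC PEG libraries 18 and 19 and HEV PEG library 23 are bright across pan-epithelial, enterocyte and goblet genes, Lyz1 is brightest in libraries 18, 19 and 24, and Dclk1 is at 95.6 CPM or more in every column.

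The pan-epithelial markers were present in all 4 groups. Epcam encodes the adhesion molecule by which epithelial cells are commonly sorted. It lay between 0.242 and 351 CPM in FRC control (median 25.1), between 14.1 and 707 CPM in FRC PEG (median 53.5) and between 0.401 and 510 CPM in HEV PEG (median 165). In HEV control it was at 0, 85.5, 85.8 and 73.3 CPM in libraries 8, 9, 17 and 24. A count of 0 in library 8 allows up to 0.190 CPM. The ranges of Epcam overlapped between all groups, and the highest values were in FRC PEG library 18, HEV PEG library 23 and FRC control library 20. The keratins Krt8, Krt18 and Krt19, which form the filaments of simple epithelia, the junction proteins Cdh1 and Cldn7, and the transcription factor Elf3 were likewise uneven: FRC PEG library 18 held the largest number of reads of each of the 6, between 23.5% (Krt19) and 36.0% (Cdh1) of all reads of the gene. Cdh1, which encodes E-cadherin, lay between 0 and 11.4 CPM in FRC control and between 1.94 and 83.0 CPM in FRC PEG, where 3 of 7 and 7 of 7 libraries held at least 10 reads.

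The enterocyte markers were the broadest group. Lgals4, which encodes a galectin of the brush border, had at least 10 reads in all 24 libraries. It lay between 29.5 and 363 CPM in FRC control (median 50.1), between 44.8 and 1063 CPM in FRC PEG (median 140), and between 13.8 and 531 CPM in HEV PEG (median 213). Its values in HEV control libraries 8, 9, 17 and 24 were 5.19, 199, 84.4 and 74.4 CPM. The lowest of these was again library 8. Vil1, which encodes the microvillus protein villin, lay between 0.242 and 14.1 CPM in FRC control (median 1.66), between 0.562 and 113 CPM in FRC PEG (median 9.57), and between 0.401 and 68.4 CPM in HEV PEG (median 29.9). It was at 5.57, 32.6, 9.55 and 15.6 CPM in HEV control libraries 8, 9, 17 and 24, so 4 of 4 of these lay above the FRC control median. The lipid genes reached the highest values: Fabp2 reached 1607 CPM and the apolipoprotein gene Apoa1 1106 CPM in FRC PEG library 18, while Apoa1 was at 0 in 7 of 24 libraries.

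Per length, by the RPKM values the authors deposited, which carry a size factor for the library, Apoa1, Fabp2 and Lgals4 were the highest of the enterocyte genes, with medians over the 24 libraries of 83.4, 89.0 and 45.4. Phgr1 and Fabp1 followed at 41.0 and 32.5. Alpi, which encodes intestinal alkaline phosphatase, and Sis were at 0.522 and 1.31. Among 10 other enterocyte genes, the most abundant were Rbp2, a retinol-binding protein, and the glucose transporter gene Slc5a1. Rbp2 lay between 1.59 and 550 CPM in FRC control and between 0 and 799 CPM in FRC PEG, and Slc5a1 lay between 0 and 44.8 CPM and between 0 and 144 CPM in the same groups. Over all libraries Rbp2 was highest in HEV PEG libraries 16, 22 and 23, at 1376, 1086 and 1030 CPM, and FRC PEG library 18 followed.

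Reg3b and Reg3g encode bactericidal lectins made by enterocytes and Paneth cells. Reg3b was at 0 in 3 of 7 FRC control and 2 of 7 FRC PEG libraries and reached 65.9 and 192 CPM in these groups. In HEV PEG it lay between 1.65 and 226 CPM, and in HEV control libraries 8, 9, 17 and 24 it was at 0, 51.8, 18.4 and 1.67 CPM. The groups overlapped. Reg3b and Reg3g are close paralogs, so the split of reads between them is uncertain.

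Apart from Spink4, the goblet cell markers were present in fewer libraries than the enterocyte genes. Spink4 had at least 10 reads in 15 libraries, against 14 for the enterocyte gene Alpi. Muc2, the main secreted mucin, had at least 10 reads in 7 of 24 libraries. It was at 7.46, 5.26, 38.7 and 55.0 CPM in FRC PEG libraries 2, 10, 18 and 19, at 39.5 and 17.9 CPM in HEV PEG libraries 16 and 23, and at 2.08 CPM in HEV control library 24. In FRC control its highest value was 0.222 CPM. The other secreted goblet proteins had their highest values in the same libraries: Tff3, a trefoil peptide, reached 201 CPM, Fcgbp, a mucus-binding protein, 125 CPM, and Zg16, a lectin of mucus, 245 CPM, each in FRC PEG library 19. The 3 libraries with the most reads held between 70.8% (Agr2) and 94.4% (Zg16) of all reads of each of the 7 goblet genes. Agr2, a chaperone needed for mucin folding, was highest by CPM in HEV PEG library 23 at 96.6 and FRC PEG library 2 at 95.2. Goblet genes did not simply follow the amount of enterocyte RNA. FRC control library 20 held Lgals4 at 363 CPM and Fabp2 at 301 CPM, with Muc2 at 0.134 CPM and Agr2 at 0.0669 CPM, and HEV PEG library 22 held Fabp2 at 638 CPM with no Muc2 or Tff3 read. Guca2a, listed with goblet cells but made also by enterocytes, was at 289 CPM in that FRC control library.

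**Figure D2:**
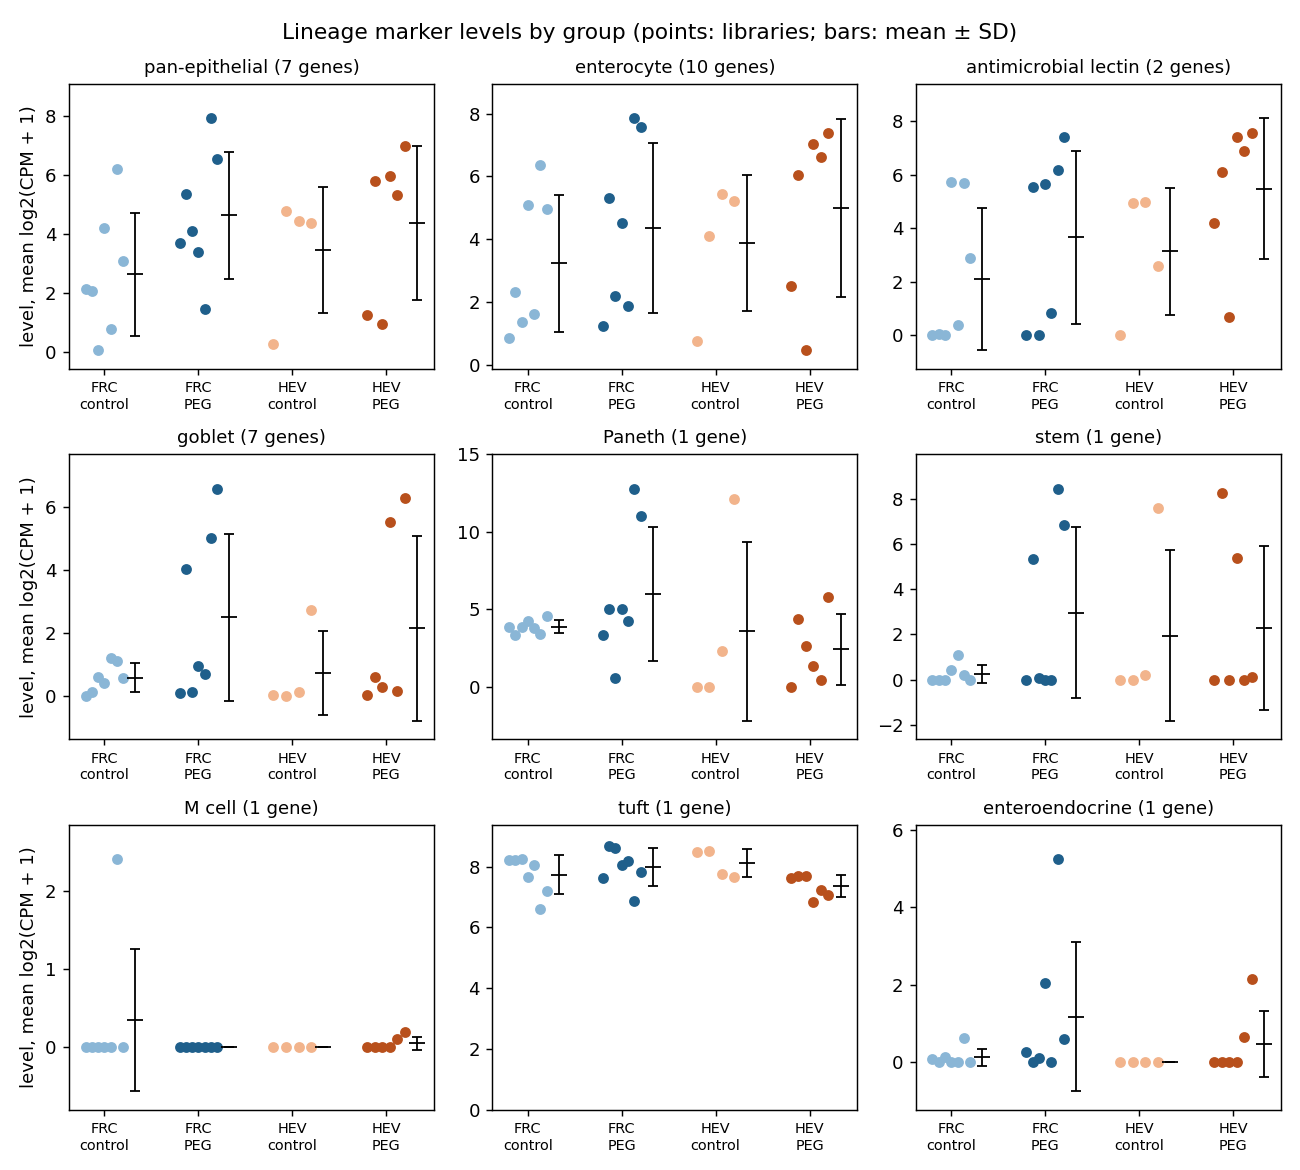
Mean log2(CPM + 1) of the genes of each lineage, with 1 point per library in order of library number within each group, and mean ± SD beside the points. Enterocyte and pan-epithelial levels spread over most of the axis in every group, goblet levels are above 2.5 in 6 libraries, and the Paneth gene stands above 10 in 3 libraries.

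The Paneth cell gene Lyz1, which encodes the secreted lysozyme of these cells, was the most unevenly spread of the abundant markers. It reached 6977 CPM in FRC PEG library 18, 4388 CPM in HEV control library 24 and 2035 CPM in FRC PEG library 19. These 3 libraries held 97.9% of its 218092 reads, and all 3 belong to inferred pool 3. In the other 21 libraries it did not exceed 54.0 CPM. A low level was found in most FRC libraries. Lyz1 lay between 9.30 and 22.5 CPM in the 7 FRC control libraries. It was at 9.44, 31.7, 0.485, 31.5 and 17.9 CPM in FRC PEG libraries 1, 2, 3, 10 and 11. In HEV control it was at 0 in libraries 8 and 9 and at 3.96 CPM in library 17, and in HEV PEG it lay between 0 and 54.0 CPM.

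Other Paneth genes had the same distribution. Of 8 further genes, Defa24, Defa22, Defa30, Defa17, Itln1, Ang4, Mmp7 and Pla2g2a, the same 3 libraries held the most reads of each, between 91.1% (Mmp7) and 99.5% (Pla2g2a). The alpha-defensin gene Defa24 reached 4491, 3199 and 1966 CPM in libraries 18, 24 and 19, and Itln1, which encodes a lectin that binds microbial sugars, reached 3081, 1704 and 1105 CPM. The low background seen for Lyz1 was there for Defa24 too: it lay between 4.47 and 32.0 CPM in FRC control, was at 0 in HEV control libraries 8 and 9 and lay between 0.0802 and 65.8 CPM in HEV PEG. Alpha-defensins are near-identical copies, so reads cannot be assigned to single members with certainty. The same holds for Lyz1 and its paralog Lyz2, a macrophage lysozyme, whose reads were also most numerous in libraries 18, 24 and 19, at 63.4% of its total.

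**Figure D3:**
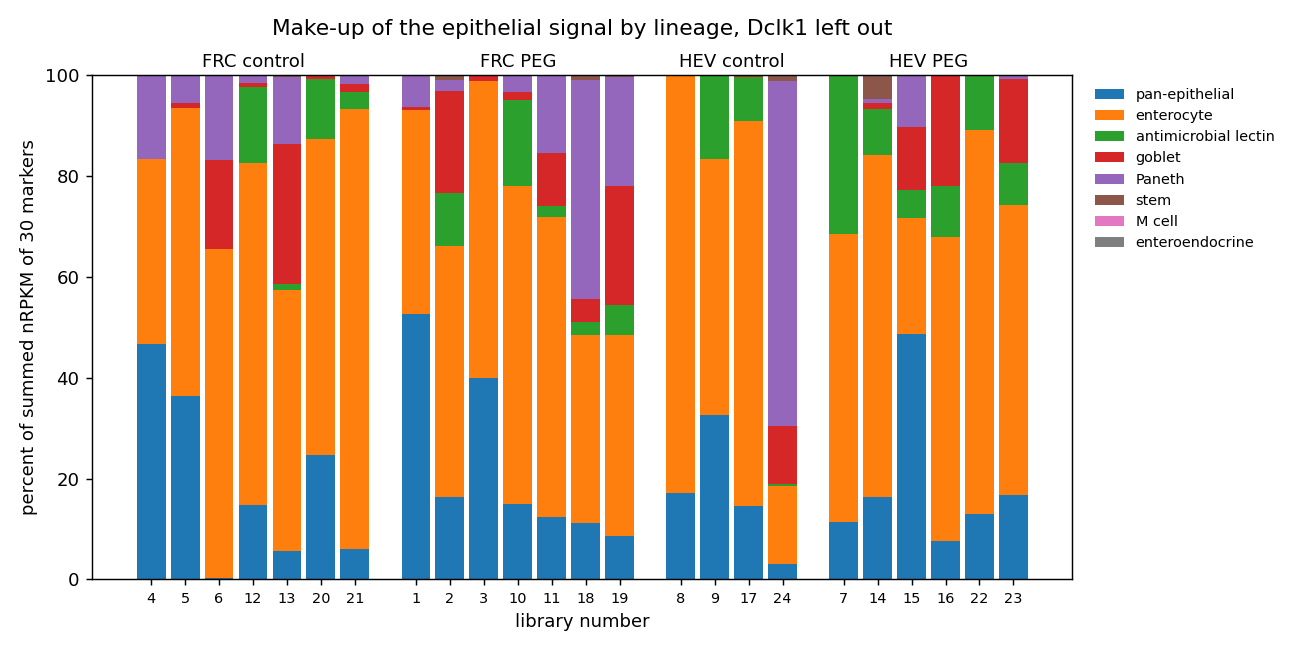
Share of each lineage in the summed RPKM of 30 markers (Dclk1 left out), as stacked bars from 0 to 100% for each library. Enterocyte genes make up 15.4% to 87.4% of the sum, the Paneth gene is the largest part in FRC PEG library 18 (43.4%) and HEV control library 24 (68.3%), and goblet genes pass 20% in 4 libraries.

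The stem cell gene Olfm4, which marks crypt base cells, had at least 10 reads in 7 libraries. It was at 348 CPM in FRC PEG library 18, 307 CPM in HEV PEG library 14, 194 CPM in HEV control library 24, 115 CPM in FRC PEG library 19, 40.8 CPM in HEV PEG library 16, 39.8 CPM in FRC PEG library 2 and 1.11 CPM in FRC control library 13. The 3 libraries rich in Lyz1 are among them. HEV PEG library 14 paired its Olfm4 with Lyz1 at 20.3 CPM. Of 6 other crypt genes, Smoc2 lay between 125 and 264 CPM and Cdk6 between 62.6 and 264 CPM in the FRC libraries, while in the HEV libraries Smoc2 did not exceed 3.79 CPM. Lgr5, a receptor that marks crypt stem cells, was at 0 in 7 libraries and reached 19.2 CPM in FRC control library 6, and the stem cell factor gene Ascl2 was at 0 in 18 libraries and did not exceed 3.92 CPM. As a list these 6 genes are not specific to epithelium here. Their mean log2(CPM + 1) lay between 3.71 and 5.19 in the FRC libraries. It was highest in FRC control library 6, where that of the pan-epithelial markers was 0.061.

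The M cell and enteroendocrine markers each had their reads mostly in 1 library. Gp2, which encodes the uptake receptor of M cells for bacteria, had 67 reads in all, of which 64 lay in FRC control library 20 (4.28 CPM), and it was at 0 in 21 of 24 libraries. A count of 0 allows between 0.138 CPM in the deepest of these libraries and 0.963 CPM in HEV PEG library 16. FRC control library 20 also held 106 CPM of Pglyrp1 and 11.4 CPM of Ccl20, which the follicle-associated epithelium expresses, but neither is specific here. Pglyrp1 lay between 159 and 750 CPM in the HEV libraries, and Ccl20 was highest in HEV control library 8 at 22.2 CPM. Anxa5, another gene of that list, was at 781 CPM or more in all 24 libraries.

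Chga, which encodes the granule protein chromogranin A, had 755 reads, of which 82.6% lay in FRC PEG library 18 (36.8 CPM). HEV PEG library 23 followed at 3.39 CPM and FRC PEG library 10 at 3.11 CPM, and no HEV control library held a read. Different libraries held different hormone genes. FRC PEG library 18 held Chgb at 322 CPM and no read of Gcg, which encodes proglucagon, whereas HEV PEG library 23 held Gcg at 268 CPM, Cck, which encodes cholecystokinin, at 80.7 CPM and Chgb at 10.7 CPM.

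Dclk1, a kinase gene used to mark tuft cells, did not behave like the other markers. It lay between 95.6 and 304 CPM in FRC control (median 262), between 116 and 409 CPM in FRC PEG (median 266) and between 114 and 204 CPM in HEV PEG (median 173), and it was at 359.5, 364, 215 and 200 CPM in HEV control libraries 8, 9, 17 and 24. It was high in libraries almost without Epcam, such as HEV control library 8. Other tuft cell genes were low or at 0: Trpm5, the channel of tuft cell taste signalling, did not exceed 3.86 CPM, Pou2f3, the factor that specifies them, 6.52 CPM, and Il25, their cytokine, 0.615 CPM. Of the 8 other tuft genes, Avil was the most abundant, at 0.614 to 16.4 CPM.

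The markers of the lineages were mixed in different proportions. These shares depend on how many genes were listed for a lineage and how abundant the RNA of each is. Pan-epithelial genes were counted as a part of their own. The shares are therefore not proportions of cells. Enterocyte genes made up a median of 62.5% of the summed RPKM of the 30 markers in FRC control, 49.9% in FRC PEG, 63.5% in HEV control and 58.8% in HEV PEG. The ranges of the groups overlapped, from 36.7% to 87.4%, 37.3% to 63.0%, 15.4% to 82.5% and 23.1% to 75.9% in the same order. Some ends rest on few reads of the 30 markers. The 82.5% in HEV control library 8 rests on 263, the 23.1% in HEV PEG library 15 on 1015 and the 36.7% in FRC control library 4 on 1651. The Paneth gene took 43.4% in FRC PEG library 18, 21.5% in FRC PEG library 19 and 68.3% in HEV control library 24, and at most 16.9% elsewhere. Goblet genes took 27.8% in FRC control library 13, 23.6% in FRC PEG library 19, 21.6% in HEV PEG library 16 and 20.1% in FRC PEG library 2. The first of these rests on 1560 reads in all 30 markers, the others on at least 12197. The stem gene did not exceed 4.88%, the enteroendocrine gene 0.217% and the M cell gene 0.0678%.

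Across libraries most markers moved with Epcam. Over the 14 FRC libraries 29 markers could be compared with it on log2(CPM + 1), and Pearson's r passed the permutation test after adjustment over all 51 relations for 24, and Spearman's rho for 20. The median r was 0.73. Over the 10 HEV libraries it passed for 17 of 22 by Pearson's r and 16 by Spearman's rho, with a median r of 0.87. All relations within a cell type use the same libraries and the same Epcam values. These counts therefore describe how the markers vary together and are not independent of each other. Only markers were compared with Epcam, so no share over all genes can be set beside these counts. Treatment and pool were not held fixed in the permutations.

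By lineage, the median r in FRC libraries was 0.86 for 6 pan-epithelial, 0.78 for 10 enterocyte and 0.58 for 7 goblet genes. Lgals4 had r = 0.88 in FRC libraries (rho = 0.96, permutation p = 4e-05, adjusted p = 0.00051, n = 14), and r was 0.98 without the 2 libraries farthest from the Epcam median, 0.71 within libraries 1 to 9 and 0.93 within libraries 10 to 24. Vil1 had r = 0.81 in FRC libraries (rho = 0.87, permutation p = 0.00039, adjusted p = 0.0016), with 0.65 within libraries 1 to 9 and 0.86 within 10 to 24. Without libraries 18 and 19 r was 0.83 for Lgals4 and 0.69 for Vil1 over 12 libraries. Muc2 had r = 0.63 (rho = 0.56, permutation p = 0.017, adjusted p = 0.025), with r = 0.92 among PEG and 0.036 among control libraries, 0.53 within libraries 1 to 9 and 0.62 within 10 to 24. Its rho did not pass (adjusted p = 0.052). Lyz1 had r = 0.55 (rho = 0.49, permutation p = 0.036, adjusted p = 0.046), which was 0.69 without the 2 libraries farthest from the Epcam median, 0.86 among PEG libraries, -0.074 among controls, -0.12 within libraries 1 to 9 and 0.64 within 10 to 24. The rho of Lyz1 did not pass either (adjusted p = 0.096). Both relations rested on FRC PEG libraries 18 and 19: without them r was 0.31 for Muc2 and -0.016 for Lyz1.

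Dclk1 had the lowest coefficient in both cell types. Its r was -0.51 over FRC libraries (rho = -0.45, permutation p = 0.060, adjusted p = 0.071) and -0.51 over HEV libraries (rho = -0.48, permutation p = 0.12, adjusted p = 0.13). Neither passed the test, and within FRC libraries 1 to 9 the sign was the opposite, at r = 0.23, against -0.66 within 10 to 24. In HEV libraries the r of Lyz1 was 0.35 (rho = 0.44, permutation p = 0.34, adjusted p = 0.34) and that of Muc2 0.45 (rho = 0.23, permutation p = 0.15, adjusted p = 0.16), against 0.96 for Krt20 (rho = 0.90, permutation p = 0.00045, adjusted p = 0.0016).

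**Figure D4:**
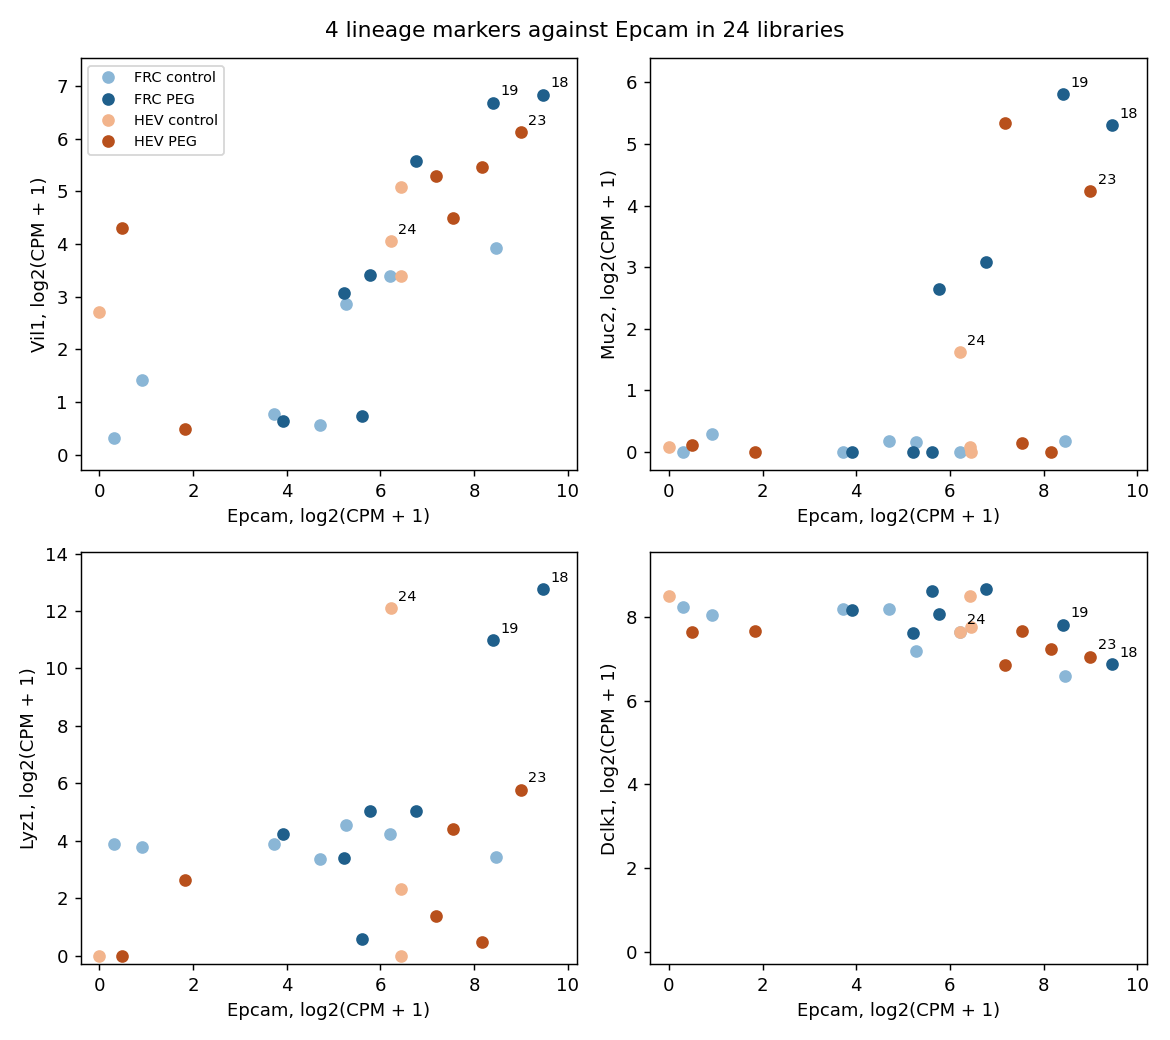
Vil1, Muc2, Lyz1 and Dclk1 against Epcam, both axes log2(CPM + 1), with 1 point per library colored by group and libraries 18, 19, 23 and 24 numbered. Vil1 rises with Epcam in FRC libraries (r = 0.81), Muc2 has under 10 reads in 17 libraries across the range of Epcam, Lyz1 stands apart in libraries 18, 19 and 24, and Dclk1 stays between 95.6 and 409 CPM.

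PEG against control in FRCs asked whether the epithelial signal moved with treatment. No marker passed: of 31, 24 had enough reads to be tested, and 0 of these passed edgeR's quasi-likelihood test at an adjusted p under 0.05, as did 0 of 14595 genes (0%). DESeq2 passed 1 of the 24 markers, Lgals4 (adjusted p = 0.049), and 57 genes (0.391%). Without the filter on low counts edgeR passed 20 of 31 markers, all higher under PEG, against 177 of 28700 genes (0.617%). The fitted log2 fold change was above 0 in 24 of 24 markers, with a median of 1.71, against 51.4% and a median of 0.014 over all genes tested. These markers vary together across libraries, so the 24 signs are not 24 independent observations. At an unadjusted p under 0.05 there were 4 markers, all higher under PEG, against 6.78% of genes tested (3.84% higher and 2.93% lower). These were Cdh1 at 4.16 ± 1.11 (log2 fold change ± SE, edgeR adjusted p = 0.51), Lgals4 at 1.49 ± 0.44 (adjusted p = 0.58), Vil1 at 3.32 ± 1.14 (adjusted p = 0.61) and Tff3 at 5.25 ± 1.91 (adjusted p = 0.63). Epcam was at 1.42 ± 0.96 (adjusted p = 0.86), Reg3b at 3.64 ± 2.42 (adjusted p = 0.86; 1.07 without FRC PEG library 2 and 6.45 without FRC control library 12), Lyz1 at 1.65 ± 1.29 (adjusted p = 0.89) and Dclk1 at 0.31 ± 0.18 (adjusted p = 0.83). Muc2, Agr2, Fcgbp, Clca1, Olfm4, Gp2 and Chga were not tested for want of reads in enough libraries.

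By lineage, the mean level in FRC PEG exceeded that in FRC control by 2.00 for pan-epithelial genes (log2 scale, pooled SD 2.12), 1.14 for enterocyte genes (2.47), 1.55 for the lectins (2.96), 1.92 for goblet genes (1.91), 2.12 for the Paneth gene (3.07), 2.72 for the stem gene (2.69) and 1.06 for the enteroendocrine gene (1.38), and fell short of it by 0.34 for the M cell gene (0.64). Without FRC PEG library 18 the difference was 0.56 for enterocyte, 0.99 for Paneth, 1.81 for stem and 0.38 for enteroendocrine genes. Without FRC PEG library 19 it was 0.93 for the lectins and 1.24 for goblet genes. FRC PEG libraries above every control were 2 of 7 for pan-epithelial and enterocyte levels, libraries 18 and 19 in both cases. Within the inferred pools the difference was uneven. The pan-epithelial difference was 2.96 in pool 1, -0.05 in pool 2 and 2.60 in pool 3, and that of goblet genes was 1.17, 0.02 and 4.95. For Lyz1 it was -0.72, 0.61 and 7.89. With libraries 18 and 19 left out, a setting added after the data were seen, the median fitted change of the 24 markers was 1.52, 21 of 24 were above 0 and that of Lyz1 was 0.39 (edgeR adjusted p = 1.0). Every FRC PEG library carried the same i5 index, while FRC controls were split between that index and another. Treatment and index were therefore partly mixed, and the main fit did not hold the index fixed. With the i5 index added to the pool as a covariate the median was 0.88, with 20 of 24 above 0. It was 1.04 without FRC PEG library 2 and 2.59 without FRC control library 12. Of 29 other lineage genes tested 0 passed. Their fitted change was above 0 in 6 of 6 enterocyte, 5 of 5 Paneth, 3 of 3 goblet and 3 of 3 pan-epithelial genes, 3 of 6 genes of the M cell list, 3 of 5 of the stem list and 0 of 1 of the tuft list (Avil at -0.41).

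**Figure D5:**
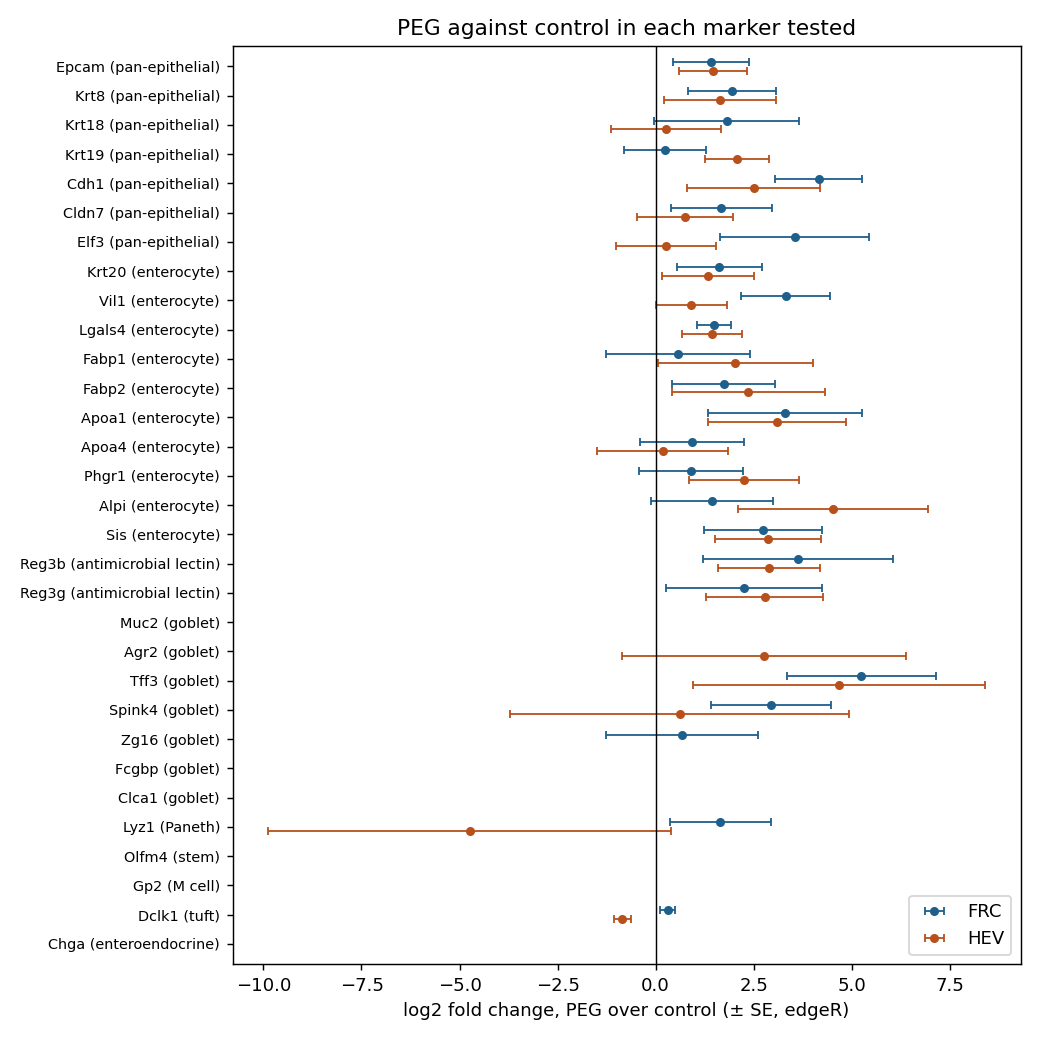
Fitted log2 fold change of PEG over control, ± SE, for each marker tested by edgeR in FRC libraries (24 markers) and HEV libraries (24 markers). All points in FRC and all but Lyz1 and Dclk1 in HEV lie right of 0, most within 2 SE of it, and none passed the adjusted test.

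PEG against control in HEV cells gave a similar picture except for Lyz1 and Dclk1. Of 24 markers tested 0 passed by edgeR, as did 0 of 14308 genes (0%), and DESeq2 passed 0 of the 24 markers and 116 genes (0.811%). Without the filter on low counts edgeR passed 15 of 31 markers, 13 higher and 2 lower (Lyz1 and Olfm4), against 141 of 27394 genes (0.515%). The fitted change was above 0 in 22 of 24, with a median of 1.84, against 50.8% and a median of 0.013 over all genes tested. At an unadjusted p under 0.05 there were 2 markers, against 6.19% of genes (2.96% higher and 3.23% lower): Krt19 at 2.08 ± 0.81 (edgeR adjusted p = 0.79) and Dclk1 at -0.85 ± 0.22 (adjusted p = 0.77). Dclk1 was below the control median in 6 of 6 HEV PEG libraries, and the ranges of the groups overlapped between 200.1 and 203.5 CPM. Its difference on the log2 level was -0.86 in pool 1 (1 PEG and 1 control library), -1.11 in pool 2 (3 and 1) and -0.56 in pool 3 (2 and 2). Reg3b was at 2.89 ± 1.31 (adjusted p = 0.80), Epcam at 1.47 ± 0.87 (adjusted p = 0.83) and Vil1 at 0.91 ± 0.91 (adjusted p = 0.89). Every HEV PEG library carried the same i5 index, while HEV controls were split between that index and another, so treatment and index were partly mixed. With the i5 index added to the pool as a covariate the median fitted change of the 24 markers was 2.30, with 20 above 0.

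Lyz1 was at -4.74 ± 5.13 (edgeR adjusted p = 0.90) in HEV cells, and this direction came from HEV control library 24. Without that library it was 4.16 (edgeR adjusted p = 0.86). The level differences in HEV cells were 0.90 for pan-epithelial (pooled SD 2.43), 1.13 for enterocyte (2.61), 2.34 for lectin (2.54) and 1.42 for goblet genes (2.46), each smaller than its pooled SD. HEV PEG libraries above every HEV control were 4 of 6 for pan-epithelial, enterocyte and lectin levels, 2 of 6 for goblet levels and 0 of 6 for Lyz1. Without HEV control library 8 the pan-epithelial difference was -0.16 and the enterocyte difference 0.08, and that of the lectins was 1.29. Without HEV PEG library 15 these differences were 1.59, 2.04 and 3.29. The goblet difference was 0.58 without HEV PEG library 23 and 2.09 without HEV control library 24. Smooth muscle genes were at 3.34 ± 2.53 in HEV control (SD, n = 4) and 1.99 ± 0.82 in HEV PEG (n = 6), highest in HEV control libraries 9 (6.18) and 24 (4.24), and their part in these differences was not tested. Of 32 other lineage genes tested 0 passed. Their fitted change was above 0 in 9 of 9 enterocyte, 4 of 4 pan-epithelial, 2 of 2 goblet, 2 of 2 tuft and 1 of 1 enteroendocrine genes, 2 of 7 of the M cell list and 1 of 3 of the stem list. It was below 0 in 4 of 4 Paneth genes, whose reads, like those of Lyz1, were numerous in HEV control library 24.

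HEV against FRC among controls compared the cell types without treatment. Of 24 markers tested, 1 passed by edgeR, against 24.6% of 15743 genes (10.4% higher and 14.2% lower in HEV). DESeq2 passed 2, against 33.9% of genes. At an unadjusted p under 0.05 there were 2 markers, both higher in HEV, against 34.9% of genes (14.8% higher and 20.1% lower). The marker that passed the adjusted test was Dclk1, higher in HEV by 0.65 ± 0.19 (edgeR adjusted p = 0.025), although the values of the groups overlapped. The call was lost without HEV control library 9 (adjusted p = 0.069), HEV control library 17 (adjusted p = 0.057), FRC control library 12 (adjusted p = 0.052) or FRC control library 20 (adjusted p = 0.059), without the pool covariate (0.38, adjusted p = 0.48), without the filter on low counts (0.68, adjusted p = 0.098) and in libraries 10 to 24 alone (0.90, adjusted p = 0.097). Without the filter 5 of 31 markers passed, against 15.4% of 28145 genes: Fabp1, Fabp2, Krt19 and Phgr1 were lower and Olfm4 was higher in HEV. Vil1 was at 2.13 ± 0.81 (edgeR adjusted p = 0.078; DESeq2 adjusted p = 0.019). The fitted change was above 0 in 7 of the 24, against 45.0% of genes, with a median of -0.77, against -0.16 over all genes tested, and it was 0.10 without the pool covariate and 0.025 without FRC control library 20. Epcam was at -0.98 ± 1.63 (adjusted p = 0.73), Fabp2 at -1.29 ± 0.81 (adjusted p = 0.30), Reg3b at -0.06 ± 1.47 (adjusted p = 0.98) and Lyz1 at 0.69 ± 10.1 (adjusted p = 0.97). Of 31 other lineage genes tested, 2 passed higher and 4 lower in HEV, against 10.4% and 14.2% of genes. The 2 higher genes were of the M cell list. The lower genes were 2 of the stem list, 1 of the M cell list and 1 of the goblet list.

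HEV against FRC under PEG gave 0 of 26 markers by edgeR, against 26.8% of 14991 genes, and 0 by DESeq2, against 33.9%. The i5 index differs throughout between these 2 groups, so cell type and index cannot be told apart in this comparison. At an unadjusted p under 0.05 there were 2 markers, both lower in HEV, against 36.3% of genes (16.8% higher and 19.5% lower). Lyz1 was at -5.04 ± 1.94 (edgeR adjusted p = 0.079), and it passed without FRC PEG library 11 (adjusted p = 0.042) or HEV PEG library 14 (adjusted p = 0.036). With FRC PEG libraries 18 and 19 left out it was at -2.71 (edgeR adjusted p = 0.41). Of the other Paneth genes, 5 of 5 tested had a fitted change below 0. Of these, 2 passed lower in HEV, against 14.4% of genes: Defa22 at -5.27 ± 1.40 (edgeR adjusted p = 0.013) and Defa30 at -4.61 ± 1.29 (adjusted p = 0.018). Over all 24 libraries, libraries 18, 24 and 19 held 96.9% of the Defa22 reads and 96.6% of the Defa30 reads. Of these, HEV control library 24 is not part of this comparison, and it alone held 64.8% of the Defa22 reads. Among all 33 other lineage genes tested, 2 passed higher and 8 lower in HEV, against 12.5% and 14.4% of genes. Dclk1 was at -0.52 ± 0.24 (adjusted p = 0.13), Krt19 at 0.55 ± 0.86 (adjusted p = 0.71), Epcam at -0.08 ± 1.30 (adjusted p = 0.98), Vil1 at 0.44 ± 1.15 (adjusted p = 0.83) and Reg3b at 0.89 ± 1.68 (adjusted p = 0.76). The fitted change was above 0 in 12 of the 26, against 46.9% of genes, and the median was -0.0060, against -0.082 over all genes tested. It was 1.10 without libraries 18 and 19, and in libraries 10 to 24 alone it was 0.77, with 26 of 29 markers tested above 0. With single libraries left out it ranged from -0.57 (without FRC PEG library 11) to 0.79 (without HEV PEG library 22). Without the filter on low counts Lyz1, Olfm4 and Chga passed, all lower in HEV, against 16.6% of 28753 genes.

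The PEG effect in HEV minus that in FRC, fitted over the 24 libraries, passed for 0 of 29 markers and 2 of 18203 genes (0.0110%) by edgeR. At an unadjusted p under 0.05 there was 1 marker, against 10.1% of genes (5.55% higher and 4.52% lower): Dclk1, whose PEG effect was lower in HEV than in FRC by -1.13 ± 0.30 (edgeR adjusted p = 0.19). DESeq2 passed 2 markers and 1.92% of genes: Dclk1 (-1.11, adjusted p = 0.030) and Olfm4 (adjusted p = 0.020), the latter with HEV control library 24 as the single HEV control above 1 CPM. The other markers named by rank were Zg16 at 7.43 ± 3.89 (edgeR adjusted p = 0.54) and Elf3 at -4.42 ± 2.38 (adjusted p = 0.55). Vil1 was at -2.53 ± 1.38 (adjusted p = 0.55), Epcam at -0.34 ± 1.74 (adjusted p = 0.99), Reg3b at -0.78 ± 2.40 (adjusted p = 0.96), Muc2 at -1.71 ± 3.01 (adjusted p = 0.91) and Lyz1 at -3.83 ± 3.60 (adjusted p = 0.78). The difference was above 0 in 10 of 29 markers, against 51.7% of genes, with a median of -0.78, against 0.040 over all genes tested. The sign of that median turned in libraries 10 to 24 alone (1.19) with the i5 index added as a covariate (0.70), and without FRC PEG library 2 (0.085), HEV control library 9 (0.62) or HEV control library 24 (0.17). Without the filter on low counts 0 of 31 markers passed, against 0.123% of 31018 genes. These comparisons share control libraries with those above, and their values are not independent.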

How the data were processed

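Poly(A) RNA of 1000 sorted cells per mouse was amplified by template switching and made into transposase libraries, per the labels. Reads were aligned with GSNAP to mm9, per the submitters' processing notes, while the protocol text names a human build. Versions and the annotation are not given in the sources used here. For each of 36528 gene models the deposited files hold, per their headers, the count of uniquely aligned reads and an RPKM adjusted by the library's size factor. In 8068 genes the authors' RPKM times the size factor was proportional to the count (relative tolerance 1e-06), and the ratio followed transcript length across 7508 genes (Spearman 0.84). Whether counting used strand is not given in the sources used here. Symbols came from the RefSeq gene table of GRCm38.p6 (85.0% of identifiers, 97.3% of reads).

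Groups follow the labels. The markers and lists were chosen with earlier results of these data known. After filterByExpr (count minimum 10) and TMM scaling, each comparison was fitted in R 4.3.3 with edgeR 4.0.16 (limma 3.58.1) and the inferred pool as a term, by its robust quasi-likelihood test, two-sided. P-values were adjusted by Benjamini-Hochberg over all genes tested, and calls were made under 0.05. The SE was derived from the log2 fold change and its F statistic. FRC and HEV libraries were treated as independent. P-values measure the spread between libraries. A lineage level is the mean log2(CPM + 1). Relations to Epcam used 100000 two-sided permutations, for markers with a read in at least 6 libraries. In data simulated from these libraries with 200 changed genes, the test recovered 49% of 4-fold changes for PEG in FRC, 25% for PEG in HEV, 33% for HEV against FRC in controls, 28% under PEG and 7% for the difference, and 17%, 0%, 0%, 1% and 0% of 2-fold changes in the same order. The changed genes were drawn from the more abundant of all genes tested, and no pool effect was simulated. Recovery of the markers themselves was not simulated.

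Named genes are Epcam, Vil1, Reg3b, Muc2, Lyz1, Olfm4, Gp2, Dclk1 and Chga, the 3 markers of smallest p of each comparison, and the 2 most abundant genes of each further list. Other genes named were chosen after their values were seen. Alternatives were DESeq2 (1.42.0) size factors or Wald test, the submitters' size factors, no filter, no covariate, pool plus i5 index, libraries 10 to 24, other pseudocounts and each library left out. The labels name no molecular identifiers, so PCR copies count as reads, and the limit that a count of 0 allows (3 counts) covers counting error only. Promoter sequences are from RefSeq, GRCm38.p6.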

Additional observations from a re-analysis of the deposited data

Results flagged for a closer look

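Values are log2(CPM + 1), or the mean of it for a lineage. In 49 sets of a gene or lineage in a group, 11 values, in 7 libraries, stood apart from the others of their group by the gap to the nearest library. The limit for this gap is set for about 1 in 20 sets of normally distributed values. Sets mostly at 0 are not of that kind, so the number of flags cannot be compared with that rate. Where all other libraries are at 0, as for Gp2 in FRC control, any read is flagged. The flagged values share libraries and are not independent.

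HEV control library 8 stood below the other HEV controls in the pan-epithelial level (0.28, against 4.37 to 4.78) and in Epcam (0, against 6.21 to 6.44). HEV PEG library 15 stood low in Vil1 (0.49, against 4.31 to 6.12).

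HEV control library 24 stood above the other HEV controls in the goblet level (2.75, against at most 0.13), in Muc2 (1.62, against at most 0.089) and in Olfm4 (7.61, against at most 0.18). FRC control library 13 stood high in Olfm4 (1.08, against at most 0.42). FRC control library 20 stood high in Gp2 (2.40, against 0 in the other 6) and in Chga (0.62, against at most 0.11). Chga also stood high in FRC PEG library 18 (5.24, against at most 2.04) and HEV PEG library 23 (2.13, against at most 0.63).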

How the results depend on the processing

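No paired analysis was possible because library numbers run once over all groups and pair no samples. DESeq2 or submitters' size factors in edgeR changed no call and turned no sign of a named gene, but the marker median of HEV against FRC under PEG turned from -0.0060 to 0.015 and 0.0034. Without the filter on low counts, genes passing rose from 0 to 177 of 28700 (20 of 31 markers, all higher) for PEG in FRC, from 0 to 141 of 27394 (15 of 31 markers, 13 higher) for PEG in HEV and from 2 to 38 of 31018 for the difference, and markers passing to 5 of 31 among controls and 3 of 31 under PEG; the cause was not tested, and standard errors were smaller (Lyz1 under PEG in FRC, 0.18 against 1.29). DESeq2 passed 57 genes and 1 marker for PEG in FRC, 116 genes for PEG in HEV, 2 markers among controls, and 350 genes and 2 markers for the difference, and turned Lyz1 to -1.77 among controls. Without the covariate Lyz1 passed among controls in place of Dclk1, 1 marker, Lyz1, passed under PEG, and 5 genes passed the difference; Reg3b turned to 0.41 among controls and 0.63 in the difference, Epcam to 0.023 under PEG and 0.12 in the difference, and Vil1 to -0.31 under PEG. Pool plus i5 index left 0 genes for the difference and turned Epcam to 2.57, Reg3b to 4.10 and Elf3 to 2.71 there. It could not be fitted under PEG, where the index differs throughout between FRC and HEV libraries. In libraries 10 to 24, 2276 genes and 0 markers passed among controls and 0 genes the difference; Epcam turned to 0.77 and Muc2 to 0.10 under PEG, and in the difference Epcam to 1.94, Vil1 to 0.53, Reg3b to 2.40 and Elf3 to 0.82. Without libraries 18 and 19, added after seeing the data, 0 genes passed the difference and Epcam was 0.32 under PEG. A pseudocount of 0.1 moved the PEG difference in HEV to 0.35 for the M cell gene and 1.31 for the enteroendocrine gene, and the relation to Epcam no longer passed for Lyz1 (r = 0.47) and Olfm4 (0.52) in FRC and Vil1 (0.60) in HEV.

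With each library left out in turn, markers passing ranged from 0 to 2 among controls and 0 to 1 under PEG, and genes passing the difference from 1 (without FRC PEG library 2 or 11, FRC control library 6, 20 or 21, or HEV control library 9) to 16 (without HEV control library 8), with 9, 6, 5 and 5 without HEV control libraries 17 and 24 and HEV PEG libraries 7 and 22. Signs turned for Lyz1 under PEG in HEV (-6.35 to 4.16); among controls for Epcam (-2.49 to 0.14), Reg3b (-0.71 to 0.85) and Lyz1 (-5.38 to 5.58); under PEG for Epcam (-0.79 to 0.73), Vil1 (-0.068 to 1.10) and Muc2 (-3.87 to 0.064); and in the difference for Epcam (-0.88 to 1.33), Reg3b (-2.28 to 2.57), Muc2 (-3.66 to 0.15) and Lyz1 (-5.48 to 2.99). The depth of HEV PEG library 16 limits what a count of 0 shows there.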
